A study of Homo sapiens with 2 samples.

Results

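The genes that carry glucose into the cell, split it to pyruvate, reduce pyruvate to lactate and send hexose into the pentose phosphate pathway were examined in U2OS cells, an established human osteosarcoma line. Membership was set by a list of 40 gene symbols, each needing 1 row of its own in the deposited table, and 36 of the 40 were found among the 18083 symbols with 1 row. HK3, GAPDHS, PGAM2 and PKLR were not listed, and no member had several rows. The series concerns DNA synthesis in mitosis and fragile sites under replication stress. For RNA sequencing the cells grew asynchronously and received 0.3 µM aphidicolin, an inhibitor of the replicative DNA polymerases, for 18 h. The tissue label is bone. Both libraries belong to this 1 treated group, an untreated library was not analysed here, and responses to the drug were therefore not measured.

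Glycolysis turns glucose into pyruvate in the cytosol and yields ATP and NADH. An investment phase spends ATP to phosphorylate and cleave the hexose, and a payoff phase from the triose phosphates on recovers it. Most steps can be run by several isozymes from separate genes, which differ in affinity, regulation and tissue. Lactate dehydrogenase returns NADH to NAD+, monocarboxylate transporters export the lactate, and pyruvate dehydrogenase, held in check by its kinases, admits pyruvate to the mitochondrion. Many of these genes are known targets of the hypoxia-inducible factors and of MYC, whose DNA motifs share the letters ACGTG and CACGTG.

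RPKM, reads scaled by exon length in kilobases and by the size of the library, rested on 13227805 reads in replicate 1 and 13020149 in replicate 2. The labels do not say whether the replicates came from separate cultures. Any p-value therefore concerns only the difference between these 2 libraries, which may be technical, and sets it against counting error unless stated. With 2 libraries, the smallest p that a sign test over them can give is 0.5, so levels are described and no permutation test of them was made. The mesenchymal markers SPARC, VIM, COL1A1, RUNX2 and ALPL were all at or above 1 RPKM in both libraries, with a median of 209 RPKM. They were uneven: RUNX2 stood at only 8.67 and 8.42 RPKM and ALPL at 1.93 and 2.53. None of the listed markers of skeletal muscle (5), male germ cells (3) or hepatocytes (2) reached that level, no erythroid marker was listed, and 4 of 5 neuronal markers did reach it, SNAP25 highest at 5.95 and 5.51 RPKM. In bulk RNA, fewer cells with a transcript and less of it per cell cannot be told apart.

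A set of short stretches from before annotated starts of the member genes is shown because lactate dehydrogenase, whose LDHA gene led its step, carried the most matches to ACGTG. The window searched was the 250 bases before 1 start per gene in RefSeq on GRCh38.p14, on both strands, and 37 of the 40 named genes had such a window, some of them not listed in the expression table. Other starts of the same genes were not searched, and the start used need not be the main one in these cells. The stretches shown for GAPDH, PGK1, HK2 and ALDOC and the second for LDHA lie inside the GENCODE bounds of their genes. The bounds of GAPDH begin at chr12:6533927 and those of PGK1 at chrX:77910739. The first LDHA stretch and the LDHC stretch cross the start of their genes, and only the PDHB stretch lies outside its gene. Capitals mark ACGTG or its reverse complement CACGT, and CACGTG, which reads the same on both strands, counts as 2 overlapping matches to ACGTG. Each stretch has 30 bases and is written 5′ to 3′ on the gene's own strand.
LDHA at chr11:18394366-18394395, plus strand: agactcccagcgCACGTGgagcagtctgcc
LDHA at chr11:18394470-18394499, plus strand: gactcaCACGTGggttcccgCACGTccgcc
LDHC at chr11:18412288-18412317, plus strand: aagagccgagcgggggaACGTGcgtgtctc
GAPDH at chr12:6535171-6535200, plus strand: gctctgcggggtCACGTGtcgcagaggagc
ALDOC at chr17:28577116-28577145, minus strand: aagtgcccggCACGTGgtaaagggattgtg
PDHB at chr3:58434051-58434080, minus strand: acaccgaccaggCACGTGtgcccagcgtgc
PGK1 at chrX:78104043-78104072, plus strand: cggACGTGacaaacggaagccgCACGTctc
HK2 at chr2:74834066-74834095, plus strand: caatgggcgtgcgCACGTcactgatccgga

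LDHA held 5 matches to ACGTG and 2 copies of CACGTG, LDHC held 1 match, and LDHB held none in this window. ALDOC and PDHB held 3 matches each, GAPDH, PGK1 and HK2 held 2 each, and GPI, ALDOA, ENO2, PDK3 and PGD held 1 each. PKLR, which has no expression value here, held 2 from a single CACGTG. Over the 37 windows, PKLR's included, 13 (35.1%) held ACGTG, against 2960 of 13382 windows (22.1%) of listed genes in general. CACGTG was present in 5 (13.5%) against 1101 (8.23%). Letters in a window are not evidence of binding. Of the 5 highest members, ENO1, PKM and TPI1 had no match in the window, which says only that these letters are absent from it, while GAPDH had a single CACGTG and LDHA 2.

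The pathway was expressed at high levels. Of the 36 listed members, 33 (91.7%) were at or above 1 RPKM in both libraries, against 66.7% of all 17912 entries. The exceptions were SLC16A3, PDK4 and PFKFB1. The median member stood at 15.5 RPKM in replicate 1 and 15.7 in replicate 2, against 3.55 and 3.52 for all entries. There were 23 members (63.9%) at or above 10 RPKM, against 28.4% of all entries, and 5 (13.9%) at or above 100 RPKM, against 1.41%. The members took 1.53% of the reads of replicate 1 and 1.55% of replicate 2. Those reads were concentrated in few genes: GAPDH, ENO1 and PKM held 64.6% of them in replicate 1 and 63.6% in replicate 2, and with LDHA and TPI1 added the share came to 78.1% and 78.2%. For 32 of 36 members the replicates lay within 10% of each other. ALDOA, PFKL, PFKFB4 and SLC16A3 differed by more.

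**Figure D1:**
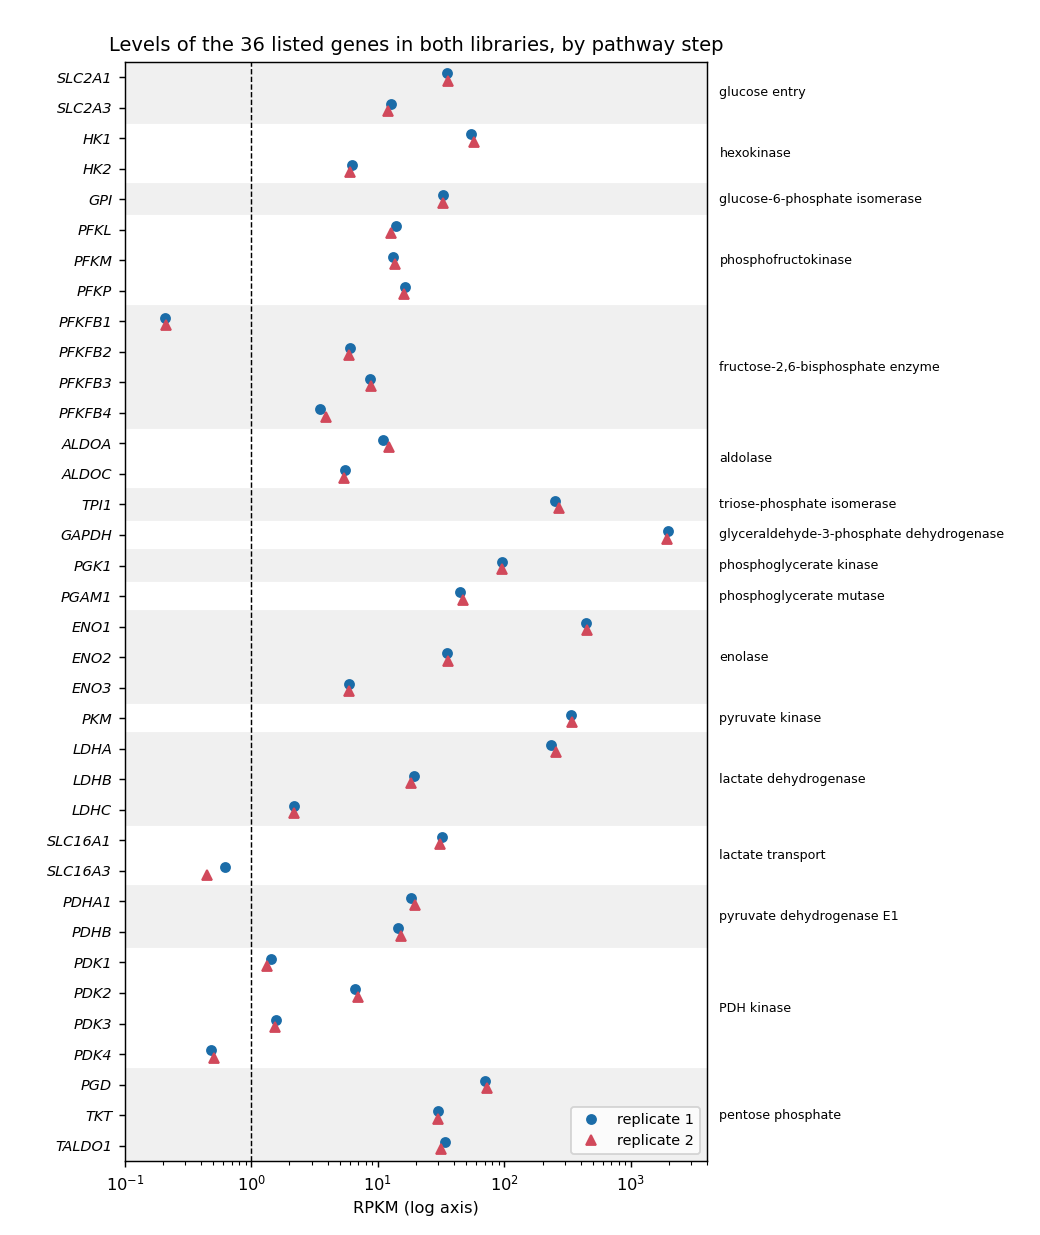
RPKM (log axis) of the 36 listed genes in replicate 1 (circles) and replicate 2 (triangles), grouped by step from glucose entry to the pentose phosphate pathway; the dashed line marks 1 RPKM. GAPDH lies highest at 1972 and 1915 RPKM, and SLC16A3, PDK4 and PFKFB1 lie below the line in both libraries.

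Glucose entry was led by SLC2A1, which encodes the widespread facilitative carrier GLUT1 (chr1:42925375-42959176, minus strand, GENCODE on GRCh38, as for all gene positions that follow). It stood at 35.5 RPKM in replicate 1 and 35.6 in replicate 2. SLC2A3, which encodes the high-affinity neuronal and white-cell carrier GLUT3, stood at 12.7 and 11.96 RPKM. SLC2A1 was therefore 2.80-fold higher in replicate 1 (exact 95% counting interval 2.60 to 3.02) and 2.98-fold higher in replicate 2 (2.76 to 3.22), and it made up 74.3% ± 0.828 (SD, n = 2) of the summed RPKM of both genes. SLC2A3 shares sequence with its near copy SLC2A14: 22.7% of the 50-base words of its transcripts also occur in SLC2A14, which was at 0.353 and 0.303 RPKM. How the authors treated reads that map to several places is not given in the sources used here.

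Hexokinase traps glucose as glucose 6-phosphate. HK1, the housekeeping form bound to mitochondria (chr10:69269984-69401884, plus strand), stood at 53.9 RPKM in replicate 1 and 57.7 in replicate 2, or 55.8 ± 2.65 (SD, n = 2). HK2, the insulin-regulated form often raised in tumours, stood at 6.20 and 5.98 RPKM. The order was the same in both libraries and far outside their spread: HK1 exceeded HK2 by 8.71-fold in replicate 1 (7.93 to 9.57) and 9.65-fold in replicate 2 (8.78 to 10.6), and by 15.2-fold with principal transcript lengths. HK1 held 90.2% ± 0.646 of the pair's RPKM. HKDC1, a hexokinase-domain gene outside the list of members, stood at 1.86 and 1.25 RPKM.

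GPI, which isomerises glucose 6-phosphate to fructose 6-phosphate (chr19:34359480-34402413, plus strand), stood at 32.7 and 32.4 RPKM. The exonic length behind its RPKM was 10680 bases, whereas its principal coding transcript has 4194, and with that length its level would be 82.9 RPKM.

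Phosphofructokinase commits the sugar to glycolysis, and its subunits come from the liver gene PFKL, the muscle gene PFKM and the platelet gene PFKP. All were expressed at close levels. PFKP stood at 16.5 and 16.1 RPKM, PFKL at 13.99 and 12.6, and PFKM at 13.1 and 13.7. PFKP exceeded PFKM by 1.26-fold (1.16 to 1.37) in replicate 1 and 1.17-fold (1.08 to 1.27) in replicate 2. PFKM and PFKL could not be ordered, since PFKL was higher in replicate 1 and PFKM in replicate 2. PFKP's lead rests on the length used: it held 37.9% of the step by RPKM, but PFKL was ahead of it by reads alone, where PFKP's share was 29.5%, and by principal transcript length, where it was 32.5%. No subunit of this step can be named as the leading one.

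The fructose-2,6-bisphosphate enzymes make and remove the strongest activator of phosphofructokinase. PFKFB3, the inducible form with high kinase activity, stood at 8.68 and 8.78 RPKM. PFKFB2, the heart form, stood at 5.97 and 5.96 RPKM, and PFKFB4, first described in testis, at 3.52 and 3.90. PFKFB1, the liver and muscle form, had 6 reads in each library, or 0.209 and 0.213 RPKM. The order was kept in both libraries, with PFKFB3 above PFKFB2 by 1.45-fold (1.31 to 1.61) and 1.47-fold (1.33 to 1.63), and PFKFB2 above PFKFB4 by 1.70-fold (1.48 to 1.95) and 1.53-fold (1.34 to 1.75). By reads without division by length, PFKFB2 led and PFKFB3 held 38.9% in place of 46.9%.

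Aldolase splits fructose 1,6-bisphosphate into triose phosphates, and its step had the lowest summed level of the backbone. ALDOA, the muscle and general form (chr16:30064164-30070457, plus strand), had 556 reads and 11.0 RPKM in replicate 1 and 612 reads and 12.3 RPKM in replicate 2. ALDOC, the brain form, stood at 5.50 and 5.44 RPKM, so that ALDOA was 1.996-fold higher (1.69 to 2.37) in replicate 1 and 2.26-fold higher (1.91 to 2.67) in replicate 2. By principal transcript length the ratio was 3.85. ALDOA lies within other annotated transcription: 53.5% of its exonic bases are shared with other GENCODE genes, 42.3% with the protein-coding AC093512.2 on the same strand, and 71.6% of its 50-base words occur in another gene. RefSeq places LOC112694756 over it, and that entry had 46 reads in each library, 1.03 and 1.05 RPKM. The part of this overlap in the level of ALDOA was not tested.

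The genes of the next steps, TPI1 and GAPDH, were among the highest of all. TPI1, which interconverts the triose phosphates (chr12:6867119-6870948, plus strand), stood at 249.2 RPKM in replicate 1 and 270 in replicate 2. GAPDH, which oxidises glyceraldehyde 3-phosphate and makes NADH (chr12:6533927-6538374, plus strand), stood at 1972 and 1915 RPKM, the second highest of all 17912 entries. It exceeded GPI by 60.3-fold (58.5 to 62.1) in replicate 1 and 59.0-fold (57.3 to 60.8) in replicate 2, but by only 29.9-fold by principal transcript length. In GAPDH 25.5% of the 50-base words also occur in other genes, 14 of them, some of them processed pseudogenes. In TPI1 13.6% of the 50-base words occur in other genes, with 12.8% in the pseudogene TPI1P1 and 0.919% in TPI1P2. The only TPI1 pseudogene with a row, TPI1P2, stood at 1.95 and 1.87 RPKM. The part of this sharing in the level of TPI1 was not tested.

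PGK1, which makes the first ATP of the payoff phase (chrX:77910739-78129296, plus strand), stood at 94.8 and 95.8 RPKM. PGAM1, the mutase that moves the phosphate along phosphoglycerate (chr10:97426160-97433441, plus strand), stood at 44.7 and 47.1 RPKM. PGAM1 was the lowest of the 7 backbone steps from the triose phosphates on. Its retrogene relative PGAM4 had 2 and 3 reads. Of the 50-base words of PGAM1, 43.3% occur in other genes, with 37.4% in AC012085.1 and 34.6% in AC078819.1.

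Enolase, which makes phosphoenolpyruvate, was almost wholly ENO1, the general form (chr1:8861000-8879250, minus strand), at 441 and 446 RPKM. ENO2, the form used as a neuronal marker, stood at 35.1 and 35.5 RPKM, and ENO3, the muscle form, at 5.92 and 5.87. ENO1 exceeded ENO2 by 12.6-fold in both libraries (12.02 to 13.2 in replicate 1), and ENO2 exceeded ENO3 by 5.93-fold (5.28 to 6.68) and 6.05-fold (5.38 to 6.82). By principal transcript length ENO2 over ENO3 was 3.21. ENO1 held 91.5% ± 0.00865 of the step. The neuronal form ENO2 was higher than 93.0% of all entries, beside the neuronal marker SNAP25 at 5.95 and 5.51 RPKM. ENO3 was at 5.89 ± 0.0345 RPKM (SD, n = 2), while its counting intervals were wider, 5.30 to 6.59 in replicate 1 and 5.25 to 6.54 in replicate 2. The muscle markers ACTA1, DES, MYH2, MB and CKM had between 1 and 23 reads in each library.

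PKM, the pyruvate kinase gene of most tissues (chr15:72199029-72231822, minus strand), stood at 334 RPKM in replicate 1 and 343 in replicate 2. Values per gene do not separate its M1 and M2 splice forms. Its RPKM used 8571 exonic bases against 2717 in the principal transcript, and by that length PKM would stand at 1068 RPKM, above ENO1 at 986.

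Lactate dehydrogenase was dominated by LDHA, whose subunit favours reduction of pyruvate to lactate (chr11:18394388-18408425, plus strand). LDHA stood at 231 RPKM in replicate 1 and 254 in replicate 2. LDHB, the heart-type subunit, stood at 19.2 and 18.2 RPKM, and LDHC, the testis subunit, at 2.17 in each library from 60 and 59 reads. LDHA exceeded LDHB by 12.03-fold (11.2 to 12.9) in replicate 1 and 13.99-fold (12.98 to 15.1) in replicate 2, and LDHB exceeded LDHC by 8.86-fold (6.81 to 11.7) and 8.37-fold (6.41 to 11.1). By principal transcript length LDHB over LDHC was 16.3. LDHA held 92.1% ± 0.751 of the step by RPKM, 96.0% by reads and 94.0% by principal transcript length.

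LDHA and LDHC lie 3.88 kb apart on chromosome 11, on the same strand, yet LDHA was 107-fold higher (82.7 to 140) in replicate 1 and 117-fold higher (90.7 to 154) in replicate 2, or 273-fold by principal transcript length. No 50-base word of LDHC occurs in another gene. Of the male germ cell markers, SYCP3 had 4 reads and DDX4 had 1 read in each library, and ACRV1 had 12 and 15. LDHB shares 33.4% of its exonic bases with the protein-coding AC010197.2, and the part of that overlap in its level was not tested. The distant relatives LDHAL6A, LDHAL6B and LDHD were all below 1 RPKM.

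**Figure D2:**
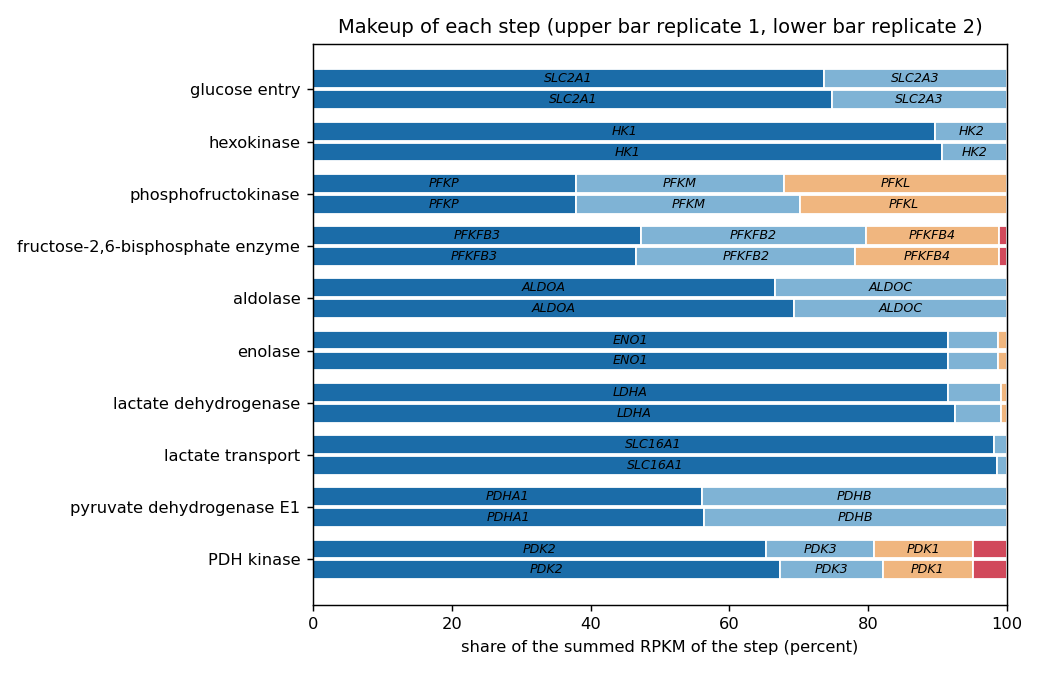
Share of each gene in the summed RPKM of its step (percent, 0 to 100), with the upper bar for replicate 1 and the lower bar for replicate 2; segments under 9 percent carry no name. SLC16A1, LDHA, ENO1 and HK1 fill about 90 percent or more of their steps, whereas PFKP, PFKM and PFKL divide theirs into nearly equal pieces.

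Lactate leaves cells through proton-coupled carriers. SLC16A1, which encodes the widespread carrier MCT1 (chr1:112911847-112957013, minus strand), stood at 32.2 and 31.0 RPKM. SLC16A3, which encodes MCT4, the low-affinity exporter of glycolytic tissues, stood at 0.614 RPKM from 73 reads and 0.444 RPKM from 52 reads. SLC16A1 was thus 52.5-fold higher (41.6 to 67.2) in replicate 1 and 69.8-fold higher (53.0 to 93.7) in replicate 2. Among the members alone, this was the widest gap between the leading and next gene of any step. SLC16A7, a lactate carrier outside the members, lay between them at 2.60 and 2.61 RPKM. By principal transcript length SLC16A1 over SLC16A3 was 39.0-fold. SLC16A1 held 98.4% ± 0.322 of this pair. SLC16A3 was higher than 25.3% of all entries and SLC16A1 higher than 91.9%.

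Other carriers of the family were also low beside SLC16A1, which was 12.4-fold (11.2 to 13.7) and 11.9-fold (10.7 to 13.2) above the next of them. SLC16A7, which encodes MCT2, stood at 2.60 and 2.61 RPKM, SLC16A8 at 1.27 and 2.30, and SLC16A4 at 1.19 and 0.874. BSG, the glycoprotein that MCT1 and MCT4 need to reach the membrane, stood at 124 and 114 RPKM, and EMB, the partner of MCT2, at 20.5 and 19.2. The accessory gene BSG was therefore above SLC16A1 in both libraries.

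Pyruvate enters the mitochondrion and meets the dehydrogenase complex. PDHA1, the catalytic alpha subunit (chrX:19343893-19361705, plus strand), stood at 18.4 and 19.8 RPKM, and PDHB, the beta subunit of the same tetramer, at 14.4 and 15.3. PDHA1 exceeded PDHB by 1.28-fold (1.17 to 1.40) and 1.29-fold (1.19 to 1.41). The direction turned with length: by principal transcript, 3310 bases for PDHA1 and 1527 for PDHB, the ratio was 0.567. In PDHA1, 21.3% of exonic bases are shared with MAP3K15.

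The kinases that switch off pyruvate dehydrogenase had a summed level of 10.0 RPKM in replicate 1 and 10.3 in replicate 2, or 23.5 and 23.8 by principal transcript length. PDK2, the most widespread form, stood at 6.55 and 6.91 RPKM, PDK3 at 1.56 and 1.52, PDK1, a well-known hypoxia target, at 1.43 and 1.32, and PDK4, the starvation-induced form, at 0.482 and 0.507 from 29 and 30 reads. PDK2 exceeded PDK3 by 4.21-fold (3.62 to 4.90) and 4.53-fold (3.90 to 5.28). PDK3 over PDK1 was 1.09-fold (0.917 to 1.29) and 1.15-fold (0.969 to 1.37), which is within counting error.

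PDK2's lead depended on the exonic length. The length behind the RPKM of PDK3 was 13555 bases, against 4951 in GENCODE and 1921 in its principal transcript, the largest such ratio (7.06) among the members. With principal lengths PDK2 over PDK3 was 0.985 and PDK3 over PDK1 was 7.53. PDK2 also shares 38.6% of its exonic bases with SAMD14, and the part of this in its level was not tested. PDK4 was the lowest of the kinases under each length tried.

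**Figure D3:**
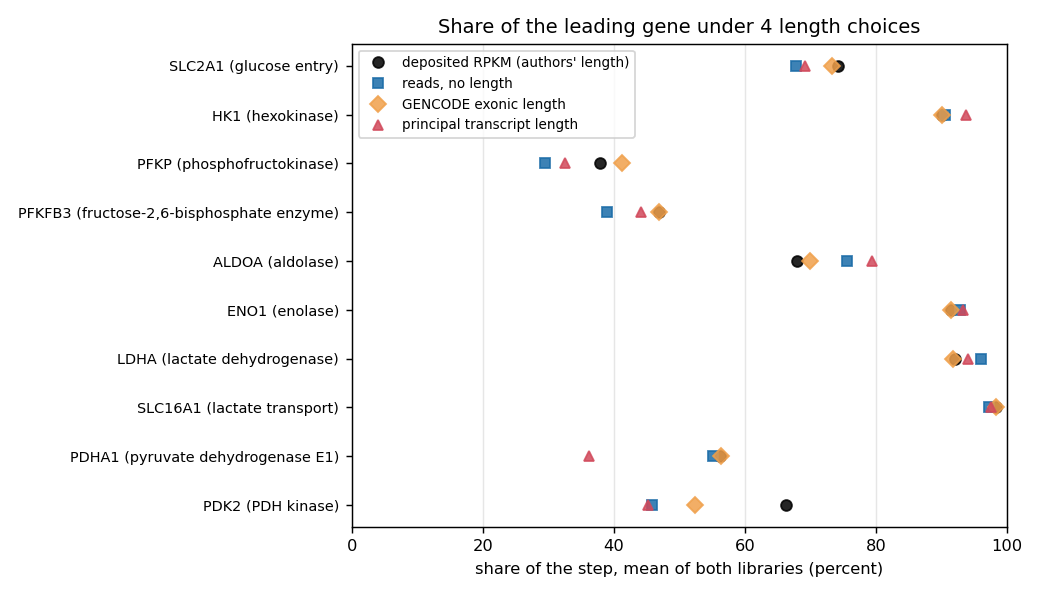
Share of the leading gene of each step (percent, mean of both libraries) from the deposited RPKM, from reads without a length, with GENCODE exonic length and with the principal transcript length. SLC16A1, LDHA, ENO1 and HK1 stay at 90.2 percent or more throughout, whereas PDK2 ranges from 45.3 to 66.3 percent and PDHA1 from 36.2 to 56.3 percent.

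The pentose phosphate pathway draws off glucose 6-phosphate for NADPH and ribose. PGD, its second dehydrogenase (chr1:10398592-10420144, plus strand), stood at 69.7 and 72.5 RPKM. TALDO1, the transaldolase, stood at 33.6 and 31.5 RPKM, and TKT, the transketolase, at 29.8 in each. PGD exceeded TALDO1 by 2.08-fold (1.94 to 2.22) and 2.30-fold (2.15 to 2.46). TALDO1 over TKT was 1.13-fold (1.06 to 1.20) and 1.06-fold (0.989 to 1.13), and by principal transcript length the ratio turned to 0.748.

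Over 19 pairs of genes next to each other in the order of their step, the libraries did not overlap in 18, with PFKM and PFKL the exception. The order was set by the mean RPKM of these same libraries, so this count cannot test it. Counting intervals reached 1 in at least 1 library for PFKM over PFKL, PDK3 over PDK1 and TALDO1 over TKT. The last 2 of these were among the 18. Among the members, the folds between isozymes ranged from near 1 for the phosphofructokinases to 52.5 and more for SLC16A1 over SLC16A3. The level of SLC16A7, outside the members, lay between those of SLC16A1 and SLC16A3.

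When the isozymes of each backbone step were summed, the 4 earlier and 7 later steps overlapped in range but had medians far apart. This split is not that of the phases. Triose-phosphate isomerase, at 259 RPKM among the later steps, belongs to the investment phase, and lactate dehydrogenase follows glycolysis. The 4 steps before the triose phosphates summed to 61.9 RPKM for hexokinase, 32.6 for glucose-6-phosphate isomerase, 43.0 for phosphofructokinase and 17.1 for aldolase, with a median of 37.8. The 7 steps from triose-phosphate isomerase to lactate dehydrogenase ran from 45.9 RPKM for phosphoglycerate mutase to 1943 for GAPDH, with a median of 264. The overlap came from phosphoglycerate mutase, which lay below hexokinase. By principal transcript length the earlier steps spanned 34.98 to 105 and the later steps 63.7 to 2483. GAPDH was the highest step and aldolase the lowest under both lengths. Neither length corrects for sequence shared with other genes. ALDOA shares 53.5% of its exonic bases and 71.6% of its sequence words with other genes. For PGAM1, the gene of phosphoglycerate mutase, 43.3% of the words are shared. The part of this sharing in the level of either step was not tested.

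Several members are neighbours. On chromosome 12 GAPDH and TPI1 lie 329 kb apart and TPI1 and ENO2 42.8 kb apart, with SLC2A3 a further 996 kb on, and on chromosome 1 ENO1 and PGD lie 1519 kb apart. The levels within this chromosome 12 group ran from 12.3 RPKM for SLC2A3 to 1943 for GAPDH.

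A comparison of the libraries showed small differences in the most deeply counted members. Of all 11944 expressed entries, 1.68% differed at an adjusted p under 0.05 (exact binomial test, p-values adjusted by Benjamini and Hochberg's method over all of them), and 5 of 33 expressed members did. Entries higher in replicate 2 made up 1% and entries higher in replicate 1 0.678%, and the members divided as 4 and 1. LDHA was higher in replicate 2 by 0.14 on the log2 scale (SE 0.0147, adjusted p = 2.62e-18, exact binomial test). TPI1 was higher there by 0.12 (adjusted p = 5.31e-06, exact binomial test), HK1 by 0.10 (adjusted p = 0.0399) and PKM by 0.04 (adjusted p = 0.00585). GAPDH was lower in replicate 2, with a log2 ratio of -0.04 (adjusted p = 0.00162, exact binomial test).

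This test counts sampling of reads only, and depth moved with the calls. Entries with a mean of at least 1000 reads were called in 4.54% of 3700 cases, and all 5 called members were among the 19 members with that depth. With a fitted spread beyond counting, a coefficient of variation of 2.65%, 0.0754% of the 11944 expressed entries were called. Of the 33 members 0 were called, against 5 by the binomial test. With this spread, adjusted p for the same 5 genes lay between 0.98 and 1. Over all settings tried, the adjusted p of LDHA ranged from 1.22e-18 to 0.98 and that of HK1 from 0.0399 to 1. HK1 lost its call with scaling by library totals (adjusted p = 0.0643, exact binomial test) and without a filter on low values (adjusted p = 0.0503).

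**Figure D4:**
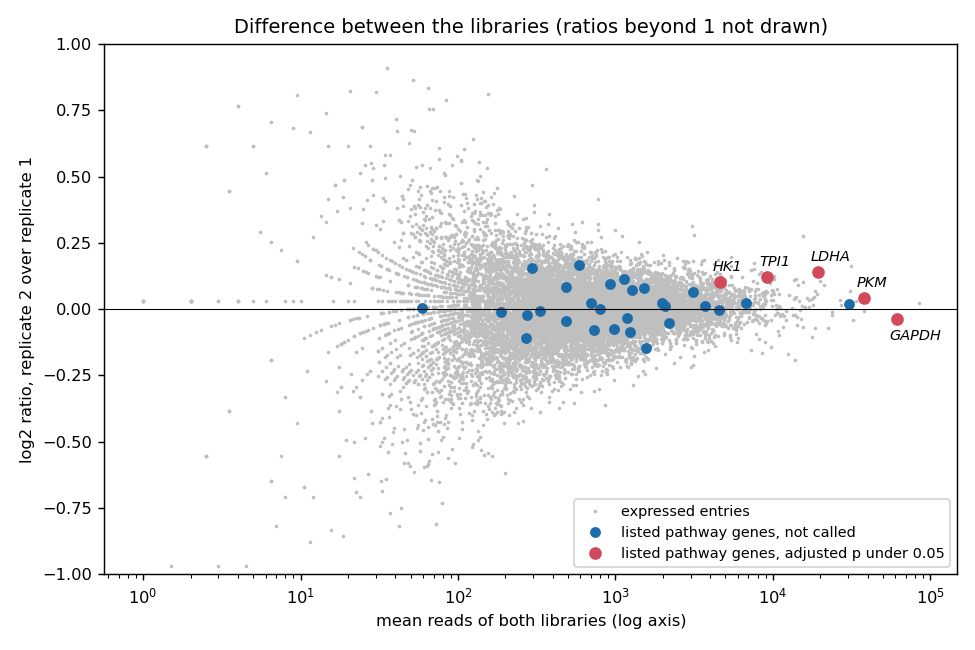
Log2 ratio of replicate 2 over replicate 1 against mean reads (log axis) for the expressed entries (grey) and the expressed members (blue, or red where the adjusted p of the exact binomial test is under 0.05). The 5 red genes, HK1, TPI1, LDHA, PKM and GAPDH, lie to the right at high depth and close to 0, between -0.04 and 0.14.

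The genes around the pathway were counted from lists of their own. Of 23 other isozymes and carriers of the same steps, 21 were listed and 12 were at or above 1 RPKM in both libraries, with a median of 1.56 RPKM. Besides BSG, EMB, SLC16A7, SLC16A8 and HKDC1 these were the ADP-dependent sugar kinase ADPGK (13.4 RPKM in both), the glucose carriers SLC2A6 (6.51 and 6.55), SLC2A8 (3.56 and 3.60), SLC2A12 (2.98 and 3.09), SLC2A10 (2.31 and 2.59) and SLC2A4 (1.12 and 1.21), and BPGM, which makes 2,3-bisphosphoglycerate (4.32 and 2.99). The insulin-responsive carrier SLC2A4 was thus near the limit. BSG was the only gene of this list that differed between the libraries (adjusted p = 0.0005, exact binomial test), higher in replicate 1.

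All 8 listed genes of pyruvate entry were expressed, with a median of 16.2 RPKM, led by the E2 subunit gene DLAT (25.7 and 26.9), the carrier subunit MPC1 (22.5 and 20.9) and the E3 subunit DLD (18.5 in both). None of them was called different between the libraries. Of the rest of the pentose phosphate pathway 7 of 9 were listed and 6 expressed, with a median of 6.44 RPKM, and among them RPE stood at 23.6 and 23.5 RPKM and RPIA at 17.8 and 16.4, the ribulose-phosphate epimerase and ribose-phosphate isomerase. TKTL1 and TKTL2 were not listed.

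Of 30 genes of glycogen, gluconeogenesis and hexose side branches, 26 were listed and 23 expressed, with a median of 10.7 RPKM. The aldose reductase AKR1B1 (34.99 and 35.98), UGP2, which makes UDP-glucose (34.4 and 33.1), and the liver-type glycogen phosphorylase PYGL (32.2 and 33.5) were highest. The gluconeogenic genes FBP1, G6PC1 and PCK1 were not listed. SORD, the sorbitol dehydrogenase, differed between the libraries at 3.13 and 4.32 RPKM (adjusted p = 0.0103, exact binomial test).

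All 16 genes of the citric acid cycle were expressed, with a median of 22.6 RPKM, led by MDH2 (84.2 and 82.2), FH (61.3 and 60.4) and CS (43.0 and 43.6). Of 14 regulators 12 were expressed, with a median of 8.84 RPKM. HIF1A, the hypoxia-inducible factor subunit, stood at 78.5 and 83.3 RPKM (adjusted p = 0.049, exact binomial test), MYC at 26.6 and 26.1, and the AMP-activated kinase subunit PRKAA1 at 25.2 and 24.4. EGLN3 and MLXIPL were below 1 RPKM in both libraries.

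**Figure D5:**
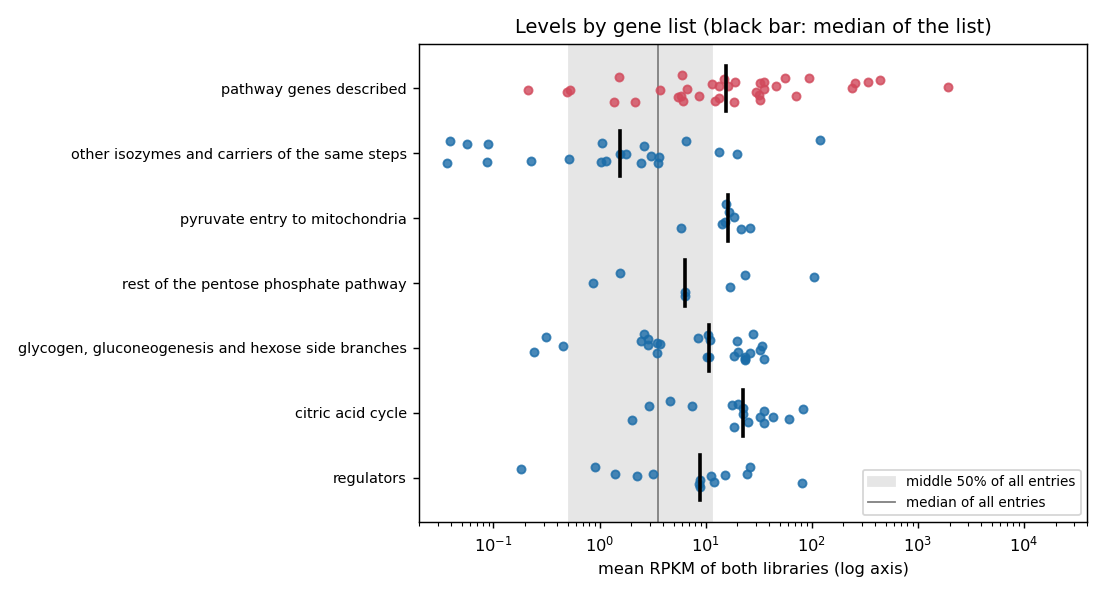
Mean RPKM of both libraries (log axis) for each gene of the pathway described (red) and of 6 surrounding lists (blue), with a black bar at each median, the middle 50 percent of all entries shaded and their median as a grey line. The medians run from 1.56 for the other isozymes and carriers to 22.6 for the citric acid cycle, with 15.6 for the pathway genes described.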

How the data were processed

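Per the labels' protocols, oligo(dT) beads selected the RNA, random hexamers primed its copying, and the libraries were read as DNA nanoballs. The authors deposited RPKM per gene for both libraries in 1 table, per the file headers. Trim Galore, HISAT2 and featureCounts, with the builds hg38 and GRCh38.p13, are named per the submitters' processing notes. For versions, annotation, strand and filters the sources used here give nothing.

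The design had allowed for counts. Because the table holds RPKM, levels and shares used RPKM, and reads were recovered from it: in every entry 1 column divided by the other gave a fraction of whole numbers (largest relative error 9.33e-15), and 1019 entries with equal reads set the library totals. A whole factor per gene was set from GENCODE release 29 length, or taken as the smallest where no symbol matched (96.7% matched). The recovered reads came to 98.2% and 98.3% of the totals. Of 18277 rows, the 194 of 58 symbols with several rows were left out, and entries with identical values were counted once, which left 17912. Recovered exonic lengths equalled GENCODE's for 15 of 36 members and lay within 10% for 31. Since the factor was set from GENCODE length, this closeness is partly built in and is not an independent check.

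Folds carry exact (Clopper-Pearson) 95% intervals that cover counting error only, since reads from PCR without molecular identifiers are not independent molecules. The 2-sided exact binomial test between libraries followed trimmed mean of M values scaling (factor 0.9957), with Benjamini-Hochberg adjustment over entries at or above 1 RPKM in both. Log values are log2(RPKM + 1). Every member with a row was named, and from each other list the 3 highest, plus other isozymes at or above 1 RPKM; further genes outside this rule were named after their values were seen, and values of a few such genes are left out here. The members and lists were chosen with earlier results of these data known. Scripts were tested on simulated data. Alternatives covered the level, length, scaling, filter, pseudocount and each library alone. Tools were scipy 1.17.1, pandas 2.3.3 and numpy 2.4.6 under Python 3.11.15, with promoter sequence from RefSeq on GRCh38.p14.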

Additional observations from a re-analysis of the deposited data

How the results depend on the processing

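The number of members expressed was 33, and the other levels, units and lengths gave 29 to 35. Shares of a step rest on the length used. Without division by length they were 67.8% for SLC2A1, 29.5% for PFKP, 38.9% for PFKFB3, 75.7% for ALDOA, 92.9% for ENO1, 96.0% for LDHA, 97.3% for SLC16A1, 55.1% for PDHA1 and 45.8% for PDK2. With GENCODE exonic length they were 73.3% for SLC2A1, 41.3% for PFKP, 69.9% for ALDOA, 91.4% for ENO1 and 52.4% for PDK2. With principal transcript length, chosen after seeing the data, they were 69.2% for SLC2A1, 93.8% for HK1, 32.5% for PFKP, 44.1% for PFKFB3, 79.4% for ALDOA, 93.4% for ENO1, 94.0% for LDHA, 97.5% for SLC16A1, 36.2% for PDHA1 and 45.3% for PDK2. PFKL overtook PFKP without length and with the principal length, PFKFB2 overtook PFKFB3 without length, and PDHB and PDK3 overtook PDHA1 and PDK2 with the principal length. Each library alone gave 73.7 to 74.9% for SLC2A1, 89.7 to 90.6% for HK1, 46.6 to 47.2% for PFKFB3, 66.6 to 69.3% for ALDOA, 91.5 to 92.6% for LDHA, 98.1 to 98.6% for SLC16A1, 56.1 to 56.4% for PDHA1 and 65.4 to 67.3% for PDK2, and PFKP and ENO1 moved by less than 0.1 point. The median member, 4.05 on the log2 scale, was 3.97 with a pseudocount of 0.1, 6.20 in TPM, 6.48 in CPM and 5.18 with principal transcript length, beside 2.18 (RPKM), 4.13 (TPM), 4.28 (CPM) and 3.09 (principal) for all entries; each of these is another unit or offset. The read share of the members, 1.54%, was 1.57% of the listed reads alone. The 5 members that differed between the libraries became 0 when a 1.5-fold change was required and 0 with a spread beyond counting, and 4 with scaling by library totals, with an adjusted p under 0.01 and without a filter; the smallest whole factor for every gene, also chosen after seeing the data, kept the count at 5. That test needs both libraries and could not be run without either. No paired analysis was possible because there is only 1 group. Depth limits the members with few reads: PFKFB1 had 6 reads and PDK4 29 and 30.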
